A study of Parasteatoda tepidariorum with 2 samples.

Results

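*Pt-fgf8* (LOC107453597), *Pt-rhomboid* (LOC107438948) and the gene annotated as ETS domain-containing protein Elk-1 (LOC107440619) are 3 of the 20315 genes counted in single cells and nuclei of early embryos of the spider *Parasteatoda tepidariorum*. They were chosen by their measured profiles along the body axis. The study put *Pt-fgf8* and *Pt-rhomboid* among 213 genes picked from the profiles of stage-7 nuclei and among 264 picked from late stage-5 nuclei, and put Elk-1 only among the 264. What follows on the axis is therefore a description, with no test. The genes are written here as a secreted ligand, a protease that frees ligands of another receptor, and a transcription factor. They are not successive steps of a single signalling route.

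Fibroblast growth factors such as FGF8 are secreted proteins that bind receptor tyrosine kinases, and the receptors signal through Ras and the kinase ERK. Rhomboid proteins are proteases that cut within cell membranes. In *Drosophila*, Rhomboid releases ligands of the epidermal growth factor (EGF) receptor, which signals through the same kinases, so that the place where *rhomboid* is expressed sets much of where that receptor is active. In mammals Elk-1 is an ETS transcription factor that ERK phosphorylates. In *Drosophila*, FGF receptors guide the spreading of the mesoderm, and their ligands are made in the ectoderm beside it. The roles of the 3 spider genes were not measured in these data.

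All libraries came from whole wild-type (WT) embryos with no treatment. The stage-7_cell library was made from 15 embryos and the stage-7_nucleus library from 20 embryos of another egg sac (for stage, those used for cells were judged slightly younger). The late stage-5_nucleus library (20 embryos, germ disc stage) comes from an earlier experiment of the same laboratory. The filtered matrices held 865 cells, 6239 stage-7 nuclei and 4820 late stage-5 nuclei, with medians of 9159, 10452 and 5413 molecules per barcode. Barcode numbers shared between libraries amounted to 33 for the pair of nucleus libraries and to 5 and 6 for the pairs with cells. With 1 library per condition, neither barcodes nor axis positions were treated as replicates and no test was made. A level is the number of molecules of a gene among 10000 molecules of the library, cluster or stretch, and its 95% interval is exact Poisson. A share of barcodes is given with its Clopper-Pearson 95% interval where shown, and intervals of either kind cover counting error only. Reads in introns were counted for nuclei and not for cells.

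The ligand gene *Pt-fgf8* was among the most abundant transcripts of late stage-5 nuclei. It reached 9.63 molecules per 10000 (9.51–9.75) there, from 25807 molecules, and ranked 84 among 19099 genes. In stage-7 nuclei its level was 3.81 (3.76–3.85), from 26178 molecules, and in stage-7 cells it was 0.175 (0.148–0.205), from only 151 molecules. *Pt-fgf8* was thus highest in the earlier nuclei and lowest in cells, where it ranked 5133 among 13766 genes, and the 3 intervals lay far apart. The protease gene *Pt-rhomboid* had lower levels, with 1.77 (1.72–1.82) in late stage-5 nuclei, 0.804 (0.783–0.826) in stage-7 nuclei and 0.179 (0.152–0.210) in cells. The order of the libraries was that of *Pt-fgf8*. The transcription factor gene Elk-1 was nearly level between the stages, with 5.71 (5.62–5.80) and 5.31 (5.25–5.36) in the nuclei, and remained well detected in cells at 2.95 (2.84–3.07). In stage-7 nuclei Elk-1 was therefore more abundant than *Pt-fgf8*, whereas in late stage-5 nuclei *Pt-fgf8* was the more abundant of the pair, on this scale of molecules, which is not corrected for transcript length.

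**Figure D1:**
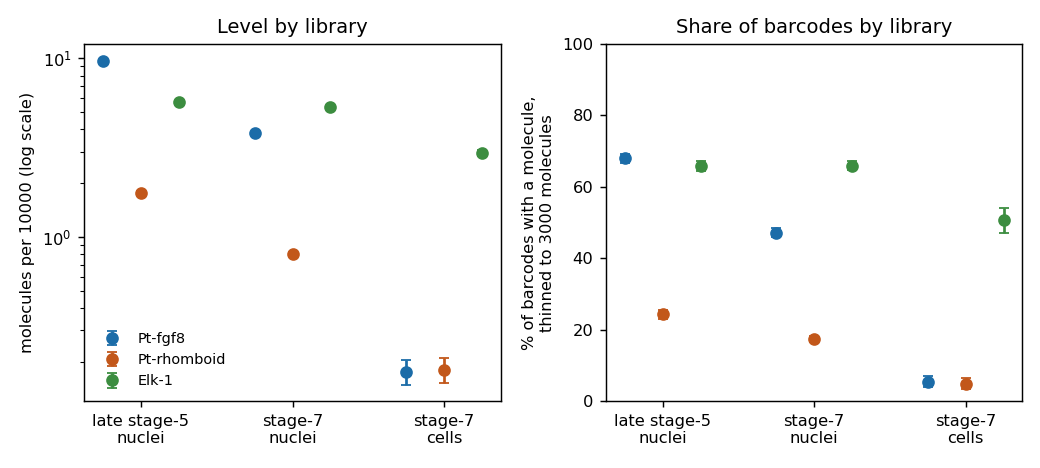
Levels of the 3 genes as molecules per 10000 on a log axis (left) and the percentage of barcodes with a molecule after thinning each barcode to 3000 molecules (right), by library. Points are values of 1 library each and bars are 95% counting intervals. *Pt-fgf8* spans the widest range, from 9.63 in late stage-5 nuclei to 0.175 in stage-7 cells, and Elk-1 the narrowest.

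Shares of barcodes followed the order of levels for *Pt-fgf8*, and for *Pt-rhomboid* only at equal depth. Molecules of *Pt-fgf8* were found in 74.6% of late stage-5 nuclei (73.3–75.8), 66.6% of stage-7 nuclei (65.4–67.8) and 14.1% of cells (11.9–16.6). After thinning to 3000 molecules, for which 223 late stage-5 nuclei were too shallow, these shares were 68.0%, 47.3% and 5.43%. For *Pt-rhomboid* they were 31.0%, 35.9% and 12.02% at full depth, and 24.3%, 17.5% and 4.86% after thinning. At full depth more stage-7 nuclei than late stage-5 nuclei held *Pt-rhomboid*, and at equal depth fewer did. Elk-1 was found in 76.7%, 88.4% and 77.1% of barcodes, and in 65.9%, 66.0% and 50.6% after thinning. At full depth a positive nucleus held a median of 5 *Pt-fgf8* molecules at both stages. The highest count was 95 at late stage 5 and 45 at stage 7, whereas positive cells held a median of 1 and at most 3. These counts are not scaled to depth, whose median was 10452 molecules in stage-7 nuclei and 5413 in late stage-5 nuclei.

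The comparison of stages asks how each transcript differed between the germ disc and the germ band. In stage-7 nuclei *Pt-fgf8* had 0.395 times its late stage-5 level (0.389–0.402) and *Pt-rhomboid* 0.456 times (0.438–0.474), which are 2.53-fold and 2.19-fold lower levels. Elk-1 had 0.930 times its earlier level (0.912–0.947). Among 13009 genes with at least 100 molecules, 30.4% were at least 2-fold lower and 10.1% at least 2-fold higher in stage-7 nuclei, and the median ratio over the genes found in both libraries was 0.656. A lower ratio than that of *Pt-fgf8* was found for 15.2% of genes, and than that of *Pt-rhomboid* for 23.9%, so both lay within the lower part of a broad range. Relative to the median gene, *Pt-fgf8* had a ratio of 0.602 and *Pt-rhomboid* one of 0.694, both still below 1, but Elk-1 had 1.42 and turned from lower to higher. Among the axis nuclei alone, Elk-1 was also higher at stage 7 (1.15 times), and *Pt-fgf8* and *Pt-rhomboid* were lower by less (0.627 and 0.815 times). The late stage-5 axis includes presumptive mesoderm and the stage-7 axis is ectoderm only, so these axis ratios compare unlike sets of nuclei. At positions 0–10 of the late stage-5 axis Elk-1 had 1.65 molecules per 10000 and *Pt-fgf8* 1.27, the lowest stretch of each. The ratios over whole libraries pool all cell types, whose proportions were not matched between the stages. The stages are single libraries with different depths, so stage and library cannot be told apart.

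Between kinds of library at stage 7, the members differed widely. Cells had 0.0459 times the *Pt-fgf8* level of nuclei (0.0389–0.0539), a 21.8-fold lower level, 0.223 times the *Pt-rhomboid* level (0.189–0.262) and 0.557 times the Elk-1 level (0.535–0.580). Of 11890 genes, 45.9% were at least 2-fold lower in cells and 2% at least 2-fold higher, with a median ratio of 0.573 over genes found in both. Only 4.61% of genes had a lower ratio than *Pt-fgf8*, against 18.6% for *Pt-rhomboid* and 50.6% for Elk-1, which sat at the middle of the range. Intron reads were counted in nuclei only, and their part in these ratios was not tested.

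The 3 genes differed in their patterns along the body axis. The study's lists give positions on an axis of 80 positions, from anterior to posterior, and all 1387 stage-7 nuclei and 1140 late stage-5 nuclei listed were used, the latter slightly more than its methods state. Position was itself derived from the expression of these nuclei, and positions of one stage do not correspond to the same numbers of the other. Profiles are local averages of ln(1 + molecules per 10000), and a peak is a maximum that stands above its neighbouring valleys by at least 0.2 of the profile's range. For landmarks at stage 7, the head genes *Pt-six3-1* and *Pt-otd* peaked at positions 1 and 13, the thorax gene *Pt-gas1* at 5 and 56 and the opisthosoma gene *Pt-AP2-A* at 74. At late stage 5 the mesoderm gene *Pt-twist* peaked at position 3, *Pt-otd* at 27, *Pt-gas1* at 69 and *Pt-AP2-A* at 29 and 80.

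In the germ disc nuclei of late stage 5, *Pt-fgf8* formed a broad domain over the middle of the axis. From 0.796 molecules per 10000 (0.578–1.07) at positions 0–5 the level went through 9.21 at positions 15–20 to 15.0 at 25–30, 15.2 at 30–35 and 15.4 (14.3–16.6) at 35–40. It was then between 7.66 and 11.8 in the stretches from 40 to 65, and 2.5 (2.01–3.06) at 70–75. Both ends of the axis were thus low, and the anterior end, where *Pt-twist* was highest, was the lowest. At positions 30–35 all of 39 nuclei held a *Pt-fgf8* molecule, against 15.2% of 99 nuclei at positions 0–5. The profile had 3 peaks, at positions 28, 48 and 80, with a shallow dip at 44, where the level in a window of 5 positions was 9.41 against 15.0 and 11.7 at the peaks beside it. A smoothing span of 0.1 left a single peak at position 30, and the highest point moved to 48 without the log, so that the plateau between these positions has no firm maximum.

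*Pt-rhomboid* marked a narrow band within the posterior part of that domain. Its level was 0.814 (0.536–1.18) at positions 40–45, 5.40 (4.60–6.30) at 45–50, 7.95 (7.07–8.91) at 50–55, 3.94 (3.24–4.74) at 55–60 and 0.603 (0.373–0.922) at 65–70. In the 8 stretches from 0 to 40 it did not pass 0.542. The band was therefore steeper on its anterior side than on its posterior side. In positions 50–55, 78.7% of nuclei held a molecule, against 6.06% at positions 0–5. Its single peak lay at position 54, and the main peak lay at 52 to 55 under the other settings. With nuclei within 0.15 units *Pt-rhomboid* had a further peak, at 31. Averaged over stretches of 10 positions, its highest stretch (50–60, 6.22) was 4.58 times its level over the whole axis. That measure reached 2 for 3.26% of 7424 genes at late stage 5, and was 1.95 for *Pt-fgf8* and 1.87 for Elk-1. The selection of the genes used these profiles, so nothing is read from these shares.

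Elk-1 formed a gradient with its high end posterior. From 1.66 molecules per 10000 (1.34–2.04) at positions 0–5 it reached 3.95 at 25–30, 7.37 at 35–40, 8.37 at 70–75 and 12.9 (11.999–13.9) at 75–80. Between positions 30 and 75 its levels stayed within 6.48 and 8.37, so that the gradient had a step near position 30 and another at the posterior end. Even at the anterior end, 45.5% of nuclei held a molecule. The highest point stayed at position 80 under each of the 3 other settings tried.

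**Figure D2:**
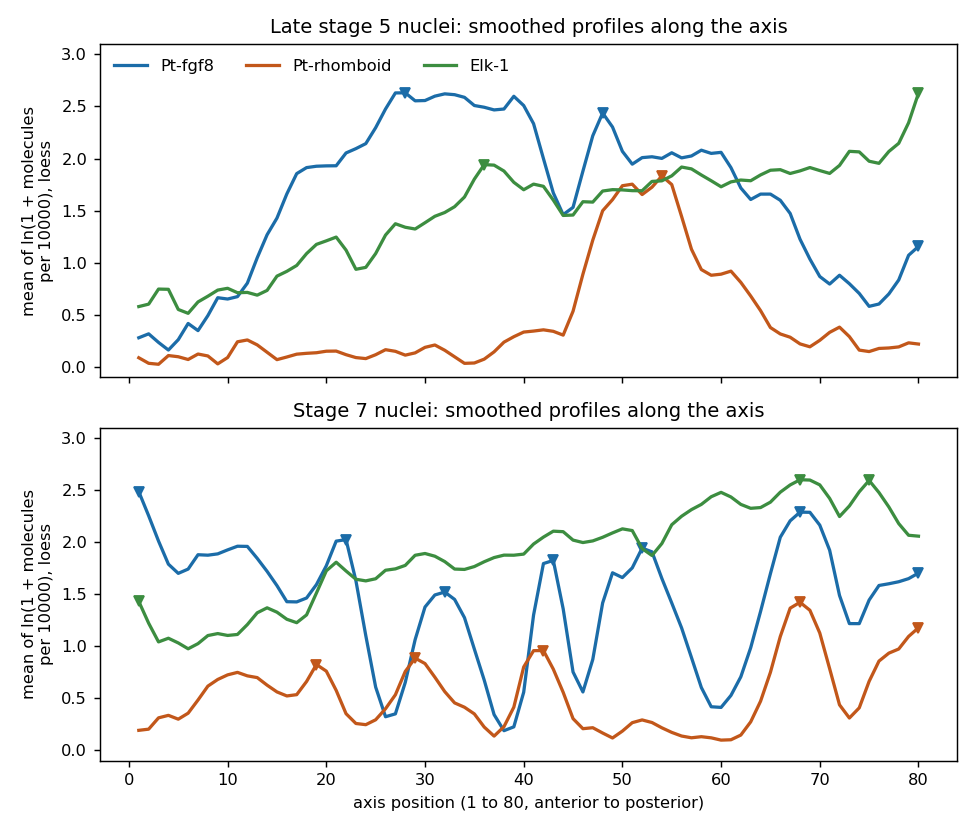
Smoothed profiles of the 3 genes along the axis of late stage-5 nuclei (top) and stage-7 nuclei (bottom). The x axis gives the axis position from anterior to posterior, the y axis the local average of ln(1 + molecules per 10000), and triangles mark peaks. At late stage 5 *Pt-fgf8* is a broad plateau, *Pt-rhomboid* a band at 54 and Elk-1 an incline to 80, and at stage 7 *Pt-fgf8* has 7 peaks and *Pt-rhomboid* 5.

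At stage 7 *Pt-fgf8* was striped along the whole axis. Its profile had 7 peaks, at positions 1, 22, 32, 43, 52, 68 and 80. In windows of up to 5 positions around the peaks its level was 8.71 molecules per 10000 (8.13–9.32) at position 1, 6.29 (5.82–6.79) at 22, 4.24 (3.86–4.65) at 32, 4.93 (4.51–5.37) at 43, 6.89 (6.35–7.46) at 52, 9.05 (8.40–9.75) at 68 and 5.26 (4.81–5.75) at 80. The valleys between them had 4.31 at position 17, 1.81 (1.54–2.11) at 26, 0.460 (0.320–0.640) at 38, 2.59 (2.29–2.91) at 46, 1.42 (1.14–1.73) at 60 and 4.19 at 74. The deepest valley, at 38, was 9.22-fold below the peak before it and 10.7-fold below the peak after it, while the valleys at 17 and 74 were 1.46-fold and 1.26-fold below the following peak. The valleys at 26, 38 and 60 were thus at least 2.34-fold below the peaks on both sides, and the other 3 were shallower on at least 1 side. Median depth was 10188 molecules per nucleus around the valley at 38 and 9875.5 and 11369 around the peaks at 32 and 43, so depth in the valley lay between those of its neighbouring peaks.

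Shares of nuclei followed the stripes. Around the peak at position 1 all 82 nuclei held *Pt-fgf8*, and around the peak at 68 it was 98.5% of 66, whereas 28.2% of 71 nuclei did so around the valley at 38. As a background, 15.3% of nuclei (thinned: 2.97%) held a molecule in rebuilt cluster 9 of the same library, which had the most of the endoderm marker LOC107451427 and a median depth of 13802. The distances between neighbouring peaks were 21, 10, 11, 9, 16 and 12 positions. The number of peaks depended on smoothing: 4 remained with a span of 0.1, at positions 1, 32, 52 and 69, and there were 8 with nuclei within 0.15 units of the axis and 6 without the log. With nuclei within 0.15 units the highest point was at position 69 in place of 1.

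*Pt-rhomboid* was also striped at stage 7, at lower levels, with peaks at positions 19, 29, 42, 68 and 80. Around these its level was 1.37 molecules per 10000 (1.12–1.66), 1.67 (1.41–1.96), 1.91 (1.64–2.21), 3.66 (3.24–4.11) and 2.75 (2.42–3.11). Between them were valleys of 0.542 (0.421–0.687) at 24, 0.290 (0.182–0.439) at 37, 0.166 (0.0827–0.297) at 60 and 1.22 (0.989–1.50) at 73. The peak at 68 was 22.1-fold above the valley at 60, the steepest contrast of the 3 genes on this axis. A long stretch over the posterior thorax and the anterior opisthosoma stayed low, with no more than 0.492 in each stretch of 5 positions from 45 to 65, where *Pt-fgf8* had its stripe at 52. The share of nuclei with a *Pt-rhomboid* molecule was 87.9% around 68, 81.7% around 80 and 16.4% around 60. The main peak stayed at 68 under all 3 other settings, which gave 5 or 6 peaks.

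Elk-1 kept its posterior gradient at stage 7 and showed little striping. It went from 2.73 molecules per 10000 (2.48–2.9997) at positions 0–5 and 2.29 (2.01–2.59) at 5–10 through 5.36 at 20–25, 7.91 at 40–45 and 9.90 at 55–60 to 13.2 (12.4–14.0) at 65–70, and then to 9.35 (8.83–9.89) at 75–80. The highest point lay at position 68, the stripe shared with *Pt-fgf8* and *Pt-rhomboid*, and at 75 without the log. By the regions that the study used, Elk-1 had 3.96 (3.81–4.10) in region A (positions 1–33, head), 7.53 (7.31–7.75) in region B (28–58, thorax) and 10.6 (10.3–10.9) in region C (55–80, opisthosoma). The corresponding levels of *Pt-fgf8* were 5.47, 3.90 and 4.79, and those of *Pt-rhomboid* 0.965, 0.817 and 1.60, both lowest in the thorax. Over stretches of 10 positions the highest level divided by the level over the axis was 1.38 for *Pt-fgf8*, 1.85 for *Pt-rhomboid* and 1.72 for Elk-1, and 3.07% of 8797 genes reached 2. For *Pt-fgf8* a stretch of 10 positions averages a stripe with its valley.

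**Figure D3:**
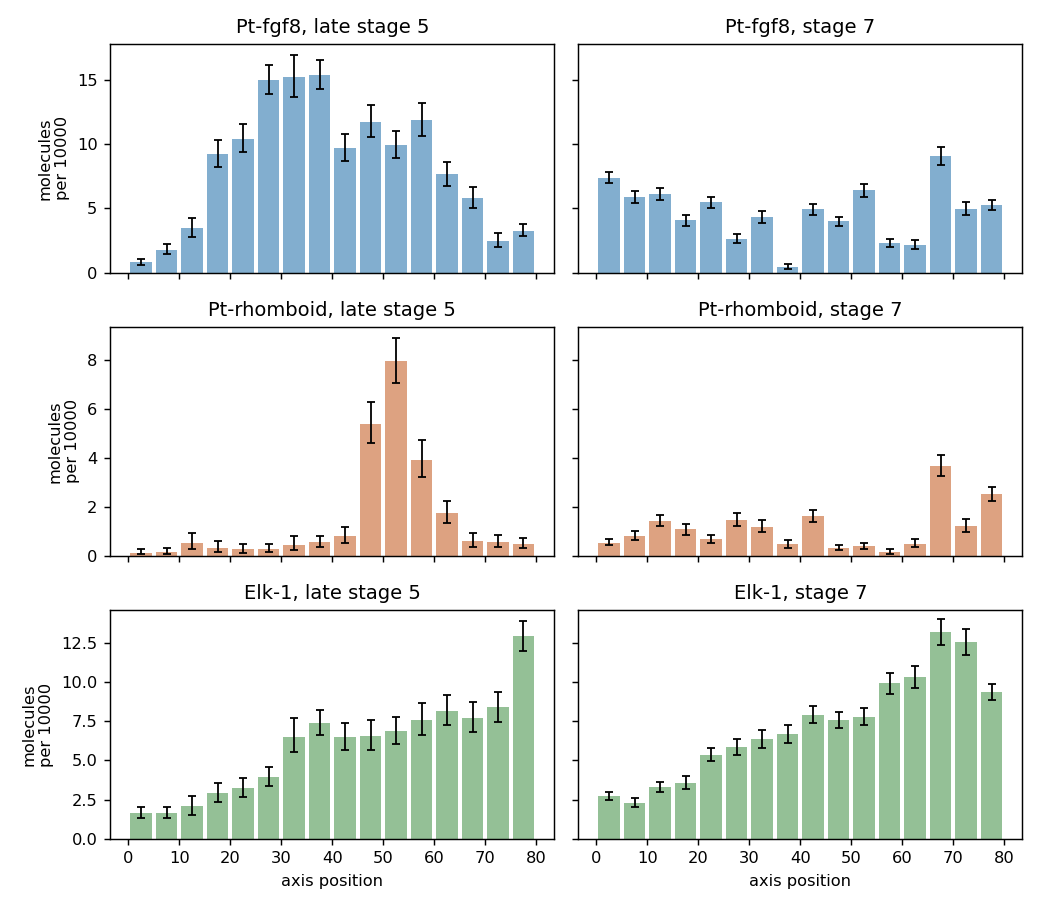
Molecules per 10000 in 16 stretches of 5 axis positions, with rows for the 3 genes and columns for late stage 5 and stage 7. Bars start at 0, error bars are 95% Poisson intervals, and each row shares a y axis. At stage 7 the *Pt-fgf8* bar at 35–40 stands at 0.460 between 4.30 and 4.93, and at late stage 5 the *Pt-rhomboid* bars at 45–60 stand above the rest.

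Some stripes of the ligand and the protease coincided. Both had peaks at 68 and 80 and within 1 position of each other at 42 and 43. The *Pt-fgf8* stripe at 52 had no counterpart. The coincidence at 80 was not stable, because *Pt-fgf8* had no peak there under the other settings. Its most posterior peak lay at 69 with a span of 0.1 and without the log, and at 76 with nuclei within 0.15 units. The *Pt-fgf8* peak at 43 was not found with a span of 0.1. In the head *Pt-rhomboid* peaked at 19 and 29 and *Pt-fgf8* at 22 and 32, but this offset was not stable, since with nuclei within 0.15 units *Pt-rhomboid* peaked at 34, posterior to the *Pt-fgf8* peak at 32, and both peaked at 11. With a span of 0.1 neither the peak at 19 nor that at 22 was found. Over the 80 positions the profiles correlated with r = 0.46 at stage 7 and r = 0.29 at late stage 5, as a description of smoothed values from 1 library. *Pt-fgf8* and Elk-1 gave −0.20 and 0.31, and *Pt-rhomboid* and Elk-1 gave 0.15 and 0.36. In levels over 16 stretches the stage-7 value for *Pt-fgf8* and Elk-1 was −0.019 and that for *Pt-rhomboid* and Elk-1 was 0.39.

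Single nuclei were also counted for pairs of members. At stage 7, 592 axis nuclei held molecules of both *Pt-fgf8* and *Pt-rhomboid*, against 549.6 that independence within stretches of 10 positions gives, a ratio of 1.08 (0.992–1.17). After thinning, 229 nuclei held both against 196.0 expected, a ratio of 1.17. At late stage 5 the counts were 243 and 230.9 (1.05, 0.924–1.19). At stage 7 a stretch of 10 positions can hold a stripe and its valley, so the expected number removes position only in part. Stripes that both genes share within a stretch can raise the ratio above 1, and co-occurrence beyond position was not tested. Of the 1387 stage-7 axis nuclei 1321 held Elk-1 and 1158 held *Pt-fgf8*. Ratios at stage 7 thus had little room to exceed 1, and the pairs with Elk-1 carry little information there. At late stage 5, 863 of 1140 nuclei held Elk-1. The pairs with Elk-1 gave between 1.00 and 1.02 at both stages. After thinning, *Pt-rhomboid* and Elk-1 gave 0.937 at late stage 5, and the other pairs with Elk-1 gave 1.01 to 1.03.

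Some landmark genes ran against the members. At stage 7 the gene most opposed to *Pt-fgf8* was *Pt-noto1*, annotated as an engrailed-like homeobox protein, with r = −0.73 among 7851 genes found in at least 10% of axis nuclei. *Pt-noto1* had 1.08 molecules per 10000 at positions 35–40 and 1.70 at 60–65, near the *Pt-fgf8* valleys at 38 and 60. It had 0.0513 at 65–70, the highest posterior stripe of *Pt-fgf8*. In the head the opposition was seen only in part. *Pt-noto1* peaked at 17, at a *Pt-fgf8* valley, with 0.385 (0.265–0.541) at 15–20. It had 0.193 (0.122–0.289) at 20–25, around the *Pt-fgf8* peak at 22. Further back no opposition was seen, with 0.327 at 25–30, around the valley at 26, and 0.305 at 30–35, around the peak at 32. The next most opposed gene was LOC107450063 (r = −0.66), annotated as the homeobox protein Meis1, which peaked at 39. With *Pt-hh*, the Hedgehog ligand, *Pt-fgf8* gave r = −0.27 and *Pt-rhomboid* 0.08. *Pt-hh* peaked at 16, 25, 63 and 75, each within 3 positions of a *Pt-fgf8* valley (17, 26, 60 and 74), although its highest stretch, 20–25 with 20.6 molecules per 10000, held the *Pt-fgf8* peak at 22.

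Most like *Pt-fgf8* at stage 7 was LOC107439303, annotated as hemicentin-2, an extracellular matrix protein, with r = 0.82 (0.85 for first derivatives). It had 5.69 molecules per 10000 at positions 65–70 and 0.315 at 35–40, and was also second for *Pt-rhomboid* (r = 0.68). The others for *Pt-fgf8* were LOC107455191, LOC107449016, LOC107436691 and LOC107437403, with r from 0.66 to 0.60. For *Pt-rhomboid* the first was LOC107446007 (r = 0.71), followed after hemicentin-2 by *Pt-runx-B*, a Runt family transcription factor (0.68), LOC107444682, annotated as an ABC transporter (0.66), and LOC107452650 (0.62). Most opposed were LOC107448574 (−0.62) and LOC107440337, annotated as a baculoviral IAP repeat protein (−0.59). Over all genes compared, 90% of correlations with *Pt-fgf8* lay between −0.31 and 0.33.

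For Elk-1 at stage 7 the genes with the most similar profile were *Pt-esrp*, annotated as the RNA-binding protein fusilli (r = 0.84), LOC107448951 (0.82, a kctd15-like protein), LOC107441856 (0.80), LOC107454021 (0.76, matrix metalloproteinase-2) and LOC122269806 (0.76). At the other end were LOC107436783, annotated as teneurin-m (−0.85), with its peak at 13, and *Pt-sox2-A* (−0.83), a SoxB-type transcription factor gene with its peak at 19. First derivatives gave r = −0.05 for *Pt-esrp* and Elk-1, so that the likeness was one of slope along the axis rather than of stripes.

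On the late stage-5 axis the 5 genes closest to *Pt-fgf8* among 6599 had r from 0.80 to 0.85. They were LOC107456830, LOC107441084 (low-density lipoprotein receptor-related protein 2), LOC107436358 (fasciclin-2, a cell adhesion molecule), LOC107456864 and LOC107457539 (zinc finger homeobox protein 3), with peaks between 38 and 42. Opposed to it were *Pt-prd2*, a paired-class homeobox gene (r = −0.80), and LOC107452768 (−0.78). The band of *Pt-rhomboid* was matched by the transcription factor gene *Pt-sp6-9* (r = 0.88, peak 54) and the iroquois gene *Pt-mirr4* (0.82, peak 54). It was also matched by LOC122273574 (0.90) and LOC107437911 (0.86), both annotated as serine proteases, and by LOC107441868 (0.83). LOC107451016 (CREBBP, −0.78) and LOC107449384 (60S ribosomal protein L9, −0.78) were the most opposed. Elk-1 ran with *Pt-soxN* (r = 0.93), LOC107442927 (0.90), LOC110281924 (0.88), LOC107436894 (0.85, zinc finger protein rotund) and LOC107446115 (0.83, the extracellular sulfatase Sulf-1). It ran against *Pt-fkh* (−0.88) and *Pt-tll* (−0.84), which peaked at positions 5 and 12.

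Germ layers were compared through clusters rebuilt from each library, which carry their own numbers and are described by their markers. The marker lists include genes that the study chose on these samples, and the members were among the variable genes used for clustering, except *Pt-fgf8* in cells, so the values are a description. In stage-7 nuclei *Pt-fgf8* and *Pt-rhomboid* were each higher in all 5 clusters that hold axis nuclei than in the other 5. *Pt-fgf8* had 7.17 molecules per 10000 (6.98–7.35) in cluster 4, with most *Pt-six3-1* and a median axis position of 3.83, 5.77 in cluster 1 (most *Pt-AP2-A*, position 72.3), 5.62 in cluster 5 (most *Pt-otd*, 17.7), 4.66 in cluster 0 (most *Pt-gas1*, 51.5) and 4.27 in cluster 2 (most *Pt-BarH1*, 35.8). Outside them it had 0.228 (0.185–0.278) in cluster 8, which had the highest level of all 3 mesoderm markers, and 0.646 (0.571–0.729) in cluster 6, the cluster with the next highest *Pt-twist*. It had 1.11 (1.02–1.22) in cluster 7, highest in all 5 extraembryonic markers, 0.167 (0.125–0.218) in cluster 9, highest in 2 of 3 endoderm markers, and 0.742 in cluster 3, whose median depth of 7698.5 was the lowest.

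For Elk-1 the split between these clusters held except in cluster 3, the cluster of lowest depth, with 3.66 against 2.67 in cluster 4. Elk-1 had between 1.16 and 1.68 in clusters 6, 7, 8 and 9. In each nucleus library the study set aside a cluster of low counts as a possible pseudocluster. Whether the rebuilt clusters of lowest depth match these was not tested. *Pt-rhomboid* was highest in cluster 1 at 1.94 (1.85–2.03) and next in cluster 2 at 1.36, and had 0.133 (0.100–0.173) in cluster 8. Elk-1 was highest in cluster 1 at 11.3 (11.1–11.6), followed by 8.27 in cluster 0, 6.62 in cluster 2, 4.11 in cluster 5 and, last of the 5, cluster 4, an order that follows their median axis positions from posterior to anterior. Elk-1 had 1.24 in cluster 8 and 1.16 (1.04–1.28) in cluster 9. In thinned nuclei 91.9% of cluster 1 and 25.0% of cluster 9 held an Elk-1 molecule.

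**Figure D4:**
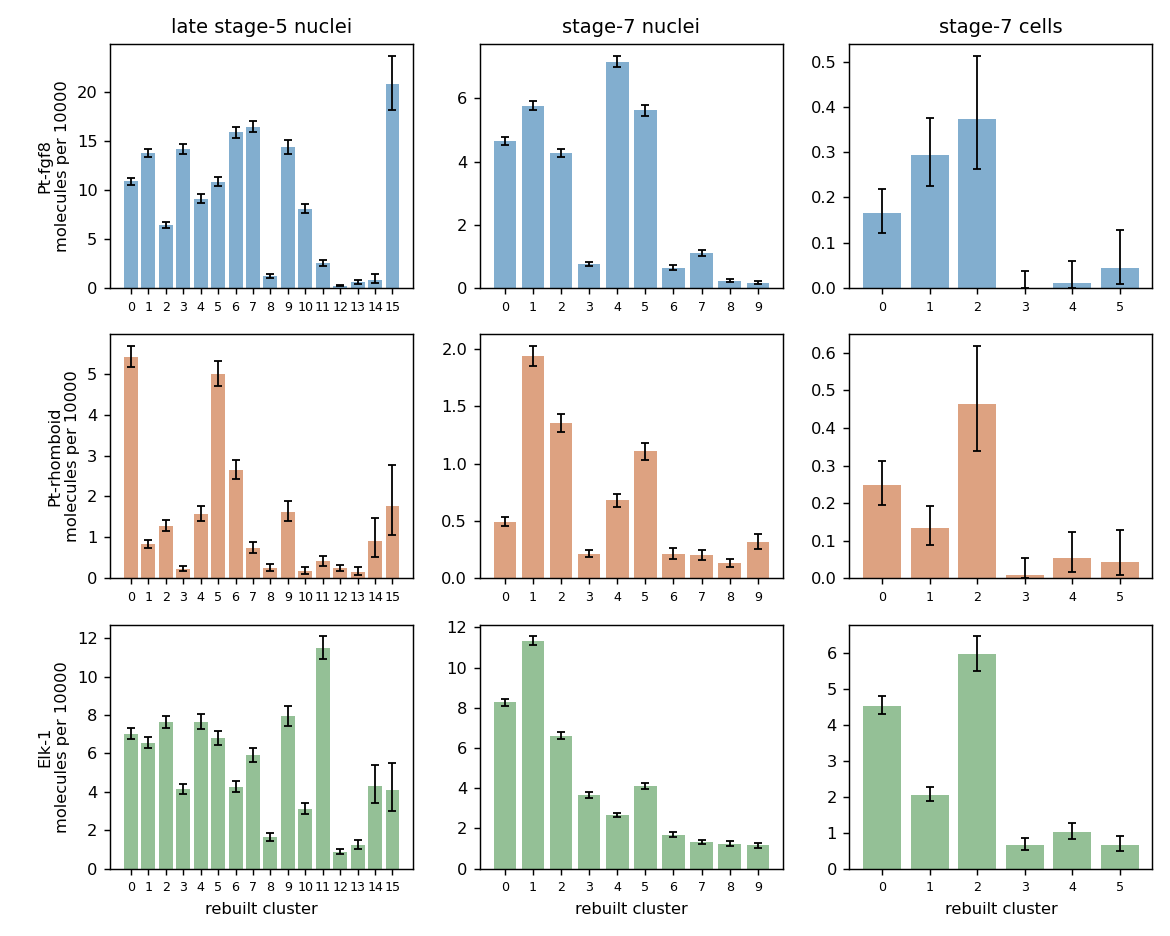
Molecules per 10000 of the 3 genes in the rebuilt clusters of late stage-5 nuclei, stage-7 nuclei and stage-7 cells. Bars start at 0, error bars are 95% Poisson intervals, and cluster numbers do not correspond between libraries. In stage-7 nuclei the *Pt-fgf8* bars of clusters 0, 1, 2, 4 and 5 stand between 4.27 and 7.17 and the others at or below 1.11.

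The cells, although shallow in these genes, shared only part of this layout. Each gene was higher in clusters 0, 1 and 2 than in the other clusters, and Elk-1 again rose from head to opisthosoma. In nuclei the highest *Pt-fgf8* level was in cluster 4, at the anterior end. In cells it was in the opisthosoma cluster, but the interval overlapped that of the head cluster, so their order is not resolved. *Pt-fgf8* had 0.373 (0.262–0.514) in cluster 2, highest in 4 of 4 opisthosoma markers, 0.294 (0.225–0.376) in cluster 1, highest in 3 of 3 head markers, and 0.166 (0.122–0.219) in cluster 0, highest in 3 of 3 thorax markers. No *Pt-fgf8* molecule was found in cluster 3, highest in 3 of 3 mesoderm markers, where 0 of 91 cells allows a share of up to 3.30% of cells with a molecule by the limit of 3 counts (3.97% by Clopper-Pearson). *Pt-rhomboid* had 0.463 (0.339–0.618) in cluster 2, 0.248 in cluster 0 and 0.133 in cluster 1. In nuclei, by contrast, its lowest level in a cluster with axis nuclei was 0.493 (0.453–0.536), in the cluster with most *Pt-gas1*. In cells Elk-1 was highest in cluster 2 at 5.96 (5.49–6.46), with 4.54 in cluster 0, 2.06 in cluster 1 and 0.663 (0.514–0.842) in cluster 3.

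Among the late stage-5 clusters, *Pt-fgf8* was high in most and low in a few. Its highest value, 20.8 (18.1–23.7), came from cluster 15 with only 22 nuclei, followed by 16.4 in cluster 7 and 15.9 in cluster 6. Cluster 6 had most *Pt-GATA1*, an extraembryonic marker, and was highest in 3 of 5 such markers. Next were 14.4 in cluster 9, whose median depth of 3866 was the lowest, and 14.2 in cluster 3, which had most *Pt-otd*. *Pt-fgf8* was 2.55 in cluster 11 with most *Pt-AP2-A* and 1.19 (1.02–1.37) in cluster 8 with all 3 mesoderm markers highest. In cluster 12, with all 3 endoderm markers highest, it was 0.225 (0.159–0.311). *Pt-rhomboid* was concentrated in clusters 0 (5.42, 5.17–5.68) and 5 (5.00, 4.70–5.32), and cluster 6 followed with 2.66. Cluster 0 had a median axis position of 50.7, and *Pt-rhomboid* in cluster 13 was 0.161. Elk-1 was highest in cluster 11 at 11.5 (10.9–12.1) and had 1.66 in cluster 8 and 0.884 in cluster 12.

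The other genes of these routes were taken from a list of 17 FGF, EGF and ERK pathway genes. Some were picked by identifier, and others were matched by product name among 1329 genes with a name at hand. The named genes are mostly cluster markers and genes the study selected, so the list leans to patterned genes. Between stages, 8 of the 17 were at least 2-fold lower and 1 at least 2-fold higher at stage 7, beside 30.4% and 10.1% of all genes, with a median ratio of 0.571 beside 0.656. The gene that was higher was LOC107438084, annotated as pro-neuregulin-2, a ligand of the EGF family, with 0.0160 molecules per 10000 at late stage 5 and 0.337 at stage 7 (ratio 21.0, 15.5–29.1). *Pt-ets21c*, an ETS gene, had the lowest ratio, 0.123 (0.114–0.132). The EGF receptor gene LOC107438758 went from 11.2 to 4.35 (ratio 0.388) and the gene annotated as pro-epidermal growth factor, LOC107448055, from 2.43 to 0.902 (ratio 0.371), ratios near those of *Pt-fgf8* and *Pt-rhomboid*. The FGF receptor genes *Pt-FGFRa* and *Pt-FGFRb* had ratios of 0.936 and 0.882. Between cells and nuclei, 10 of 17 were at least 2-fold lower in cells and 0 at least 2-fold higher, beside 45.9% and 2% of all genes, with a median ratio of 0.477 beside 0.573.

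Among clusters and along the late stage-5 axis, the FGF receptor genes were highest where there was little *Pt-fgf8*, and along the stage-7 axis they were not. In stage-7 nuclei *Pt-FGFRa* had 8.15 molecules per 10000 (7.88–8.43) in cluster 8 and 7.88 in cluster 6, and at most 0.584 in the other clusters. *Pt-FGFRb* had 14.3 (13.9–14.6) in cluster 8, 7.72 in cluster 6 and 4.76 in cluster 9, and at most 0.80 elsewhere. Clusters 8 and 6 had most *Pt-twist* (2.96 and 1.32). In cells, *Pt-FGFRa* was highest in clusters 4 (1.73) and 3 (1.54) and *Pt-FGFRb* in cluster 3 (5.65), which are the clusters with 1 and 0 molecules of *Pt-fgf8*. In late stage-5 nuclei *Pt-FGFRa* was highest in cluster 8 (11.6), where *Pt-fgf8* had 1.19. *Pt-FGFRb* was highest in cluster 14 (23.0, 25 nuclei), where *Pt-fgf8* had 0.853, and next in cluster 8 (17.8). The next clusters for *Pt-FGFRa* were 4 (2.59) and 10 (1.83), where *Pt-fgf8* had 9.11 and 8.07. Positions 0–10 of the late stage-5 axis had 11.9 molecules per 10000 of *Pt-FGFRa*, 18.9 of *Pt-FGFRb* and 16.9 of *Pt-ets1*, where *Pt-fgf8* had 1.27. At positions 30–40, where *Pt-fgf8* had 15.4, they had 0.185, 0.470 and 2.16. On the stage-7 axis the receptor genes were low throughout. *Pt-FGFRa* was highest there at positions 50–60, at 1.20 (1.05–1.37), where *Pt-fgf8* had 4.52 and its stripe at 52. *Pt-FGFRb* was highest at 70–80, at 0.980 (0.849–1.13), where *Pt-fgf8* had 5.15.

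**Figure D5:**
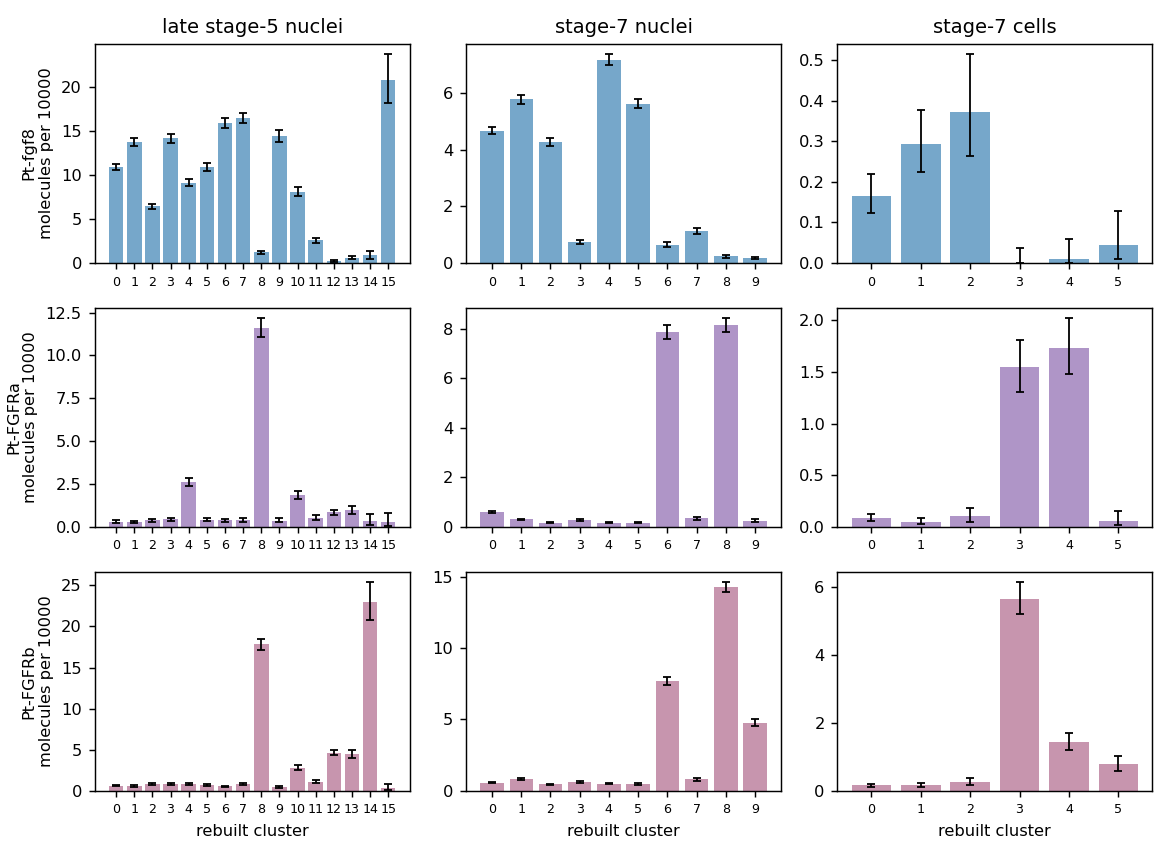
Molecules per 10000 of *Pt-fgf8*, *Pt-FGFRa* and *Pt-FGFRb* in the rebuilt clusters of the 3 libraries, with bars from 0 and 95% Poisson intervals. In stage-7 nuclei the receptor genes stand highest in cluster 8 (8.15 and 14.3), where *Pt-fgf8* is at 0.228.

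On the EGF side, *Pt-rhomboid* and the pro-epidermal growth factor gene LOC107448055 overlapped in part. At stage 7 LOC107448055 had 2.93 molecules per 10000 at positions 60–70 and 2.70 at 10–20, but 0.405 at 30–40, and among clusters it was highest in 5 (2.60) and 1 (1.95). The levels of *Pt-rhomboid* at these positions were 2.04, 1.27 and 0.848. In late stage-5 nuclei LOC107448055 was highest at positions 50–60 (3.88), the stretch of the *Pt-rhomboid* band, but remained at 2.76 and 3.53 in the stretches behind it, where *Pt-rhomboid* had 1.17 and 0.519. The EGF receptor gene LOC107438758 was found along the whole axis, with a lowest stretch of 2.78 at stage 7 and of 6.28 at late stage 5. Of the 15 list genes with at least 100 molecules on the axis, 7 at stage 7 and 9 at late stage 5 had a highest stretch of at least 2 times their axis level, beside 3.07% and 3.26% of all genes, with the list's lean to patterned genes.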

How the data were processed

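Counts of RNA molecules per gene and barcode (BD Rhapsody, unique molecular identifiers) were used as deposited by the authors, who aligned reads to the Ptep_3.0 genome. STAR 2.5.2b and Seurat 4.1.1 are named in the submitters' processing notes. The deposited counts of nuclei include intron reads, and those of cells do not. The authors' filter set at least 1500 (cells, late stage 5) or 2000 (stage-7 nuclei) genes and at most 20000 (stage 7) or 15000 (late stage 5) molecules per barcode. Doublets were treated only by that upper limit. It kept 76.4% (cells), 65.4% (stage-7 nuclei) and 97.1% (late stage 5) of molecules. The late stage-5 matrix was deposited with this series and treated as 1 library.

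The members and gene lists were chosen with earlier results of these data known. Levels were sums per 10000 molecules with exact Poisson intervals, and ratios had exact binomial intervals (95%). Profiles used loess (span 0.05) over 80 positions for nuclei within 0.3 units of the study's axis. The peak finder and the ratio intervals were checked on simulated counts. Clusters were rebuilt with Seurat 5.3.0 in R 4.3.3 (2000 variable features, 50 components and resolution 0.5 at stage 7, 45 and 1.4 at late stage 5). Other steps used Python 3.11.15, numpy 2.4.6, scipy 1.17.1 and pandas 2.3.3. For each member and stage, the 5 genes with the highest and the 2 with the lowest profile correlation were named, among genes found in at least 10% of axis nuclei, with landmark, marker and pathway genes from fixed lists. The 17 pathway genes were picked by identifier or matched by product name. Alternatives were all barcodes before the filter, axis nuclei only, scaling by the median gene ratio, thinning to 3000 molecules, other clustering and smoothing settings, and 16 stretches.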

Additional observations from a re-analysis of the deposited data

How the results depend on the processing

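Of 90 alternative values, 55 stayed within the tolerance, 33 moved and 2 changed direction. Both changes of direction were for Elk-1, in the ratio of stage-7 to late stage-5 nuclei. It was 1.15 among axis nuclei, which include presumptive mesoderm at late stage 5 only, and 1.42 after scaling by the median gene ratio. That ratio for *Pt-fgf8*, *Pt-rhomboid* and Elk-1 was 0.316, 0.380 and 0.858 over all barcodes. For *Pt-fgf8* and *Pt-rhomboid* it was 0.627 and 0.815 among axis nuclei, and 0.602 and 0.694 after scaling. The ratio of cells to nuclei was 0.0545 for *Pt-fgf8* over all barcodes, and 0.0801, 0.389 and 0.972 for *Pt-fgf8*, *Pt-rhomboid* and Elk-1 after scaling. The highest late stage-5 cluster level of *Pt-fgf8* was 16.3 with the members left out of clustering and 16.4 with 30 components. In thinned stage-7 nuclei the highest cluster levels were 7.73, 2.12 and 11.9. The main *Pt-fgf8* peak moved to 69 at stage 7 with nuclei within 0.15 units. At late stage 5 it moved to 39 with those nuclei and to 48 without the log, and that of Elk-1 moved to 75 at stage 7 without the log. Nuclei with both *Pt-fgf8* and *Pt-rhomboid* at stage 7 were 1.17 times the expected number after thinning. Over 16 stretches r was −0.019 for *Pt-fgf8* and Elk-1 and 0.39 for *Pt-rhomboid* and Elk-1 at stage 7, and 0.12 and 0.23 at late stage 5. Of the 5 genes most like each member, first derivatives kept 2, 1 and 0 for *Pt-fgf8*, *Pt-rhomboid* and Elk-1 at stage 7 and 0, 3 and 0 at late stage 5. A span of 0.1 kept 2 for *Pt-fgf8* and 2 for *Pt-rhomboid* at stage 7. The cause of these changes was not tested.

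No paired analysis was possible because each condition had 1 library, so there was also no replicate to leave out. Depth limits *Pt-fgf8* and *Pt-rhomboid* in cells, with 151 and 155 molecules.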
